A study of Bos taurus with 6 samples.

Results

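The mRNA table of intramuscular fat (IMF) from steers and bulls was searched for 9 genes of B lymphocytes and plasma cells, chosen by gene symbol: IGLL1, IGJ, CD79A, CD79B, MS4A1, CD22, CD72, POU2AF1 and PRDM1. All 9 are among the 25444 rows of the table. The animals were Chinese Qinchuan male cattle of 24 months, weaned at 3 months, and the steers were castrated surgically at 6 months while the bulls stayed intact. IMF was dissected from the sternomandibularis muscle, and RNA was pooled into 1 mRNA library per group and into 2 miRNA libraries per group. By the study's design text an mRNA library pooled 6 animals and a miRNA library 3, whereas the sample labels put these numbers at 3 and 1. The genes were proposed with these counts in view, so their values are given as a description with no test. With 1 pooled library per group there is also no spread between replicates.

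B lymphocytes carry a membrane immunoglobulin that signals through CD79A and CD79B, and after activation some of them become plasma cells, which secrete immunoglobulin in large amounts. Plasma cells lose much of the B-cell surface programme while their immunoglobulin transcripts become very abundant. In fat, lymphocytes are a minor population beside adipocytes, stromal cells and macrophages. Cattle immunoglobulins use mostly lambda light chains.

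The mRNA counts sum to 12677375 in steers and 9868415 in bulls. A count of 0 therefore allows up to 3 counts, or 0.237 counts per 1000000 counts of the library (CPM) in steers and 0.304 CPM in bulls. Counts were divided by a size factor, 1.04 in steers and 0.959 in bulls, and the log2 ratio is steers over bulls with a 95% Clopper-Pearson interval that covers counting error only. A gene was assessed with at least 10 counts over both libraries and taken as lower or higher when its ratio passed 2-fold, which is 1 on the log2 scale. Of 14540 assessed genes, 11.5% were lower and 6.73% were higher in steers, and their median log2 ratio was 0.01. With total counts as the scaling this median lay at -0.23. Adipocyte transcripts were present in both libraries, and the 5 adipocyte markers ADIPOQ, PLIN1, LEP, CIDEC and FABP4 together reached 24166 counts in the steer library and 28265 in the bull library. The 5 skeletal muscle markers had 20154 and 30062 counts, so the libraries also held muscle transcripts.

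The members whose symbols refer to immunoglobulin chains, IGLL1 and IGJ, were both lower in steers. IGLL1, named after a lambda-like light chain polypeptide, had 12 reads in the steer library against 4174 in the bull library, or 0.947 and 423 CPM. Its scaled count was 379-fold lower in steers, with an interval of the log2 ratio from -9.52 to -7.76. Among the assessed genes only VL1X, a light chain row described next, had a lower ratio. IGJ, whose current RefSeq symbol is JCHAIN, encodes the joining chain that links the units of polymeric IgM and IgA. Its counts were 22 (steers) and 142 (bulls), and the log2 ratio was -2.81 (-3.53 to -2.16). The interval of IGJ lay wholly past 2-fold, and it did not overlap that of IGLL1.

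**Figure D1:**
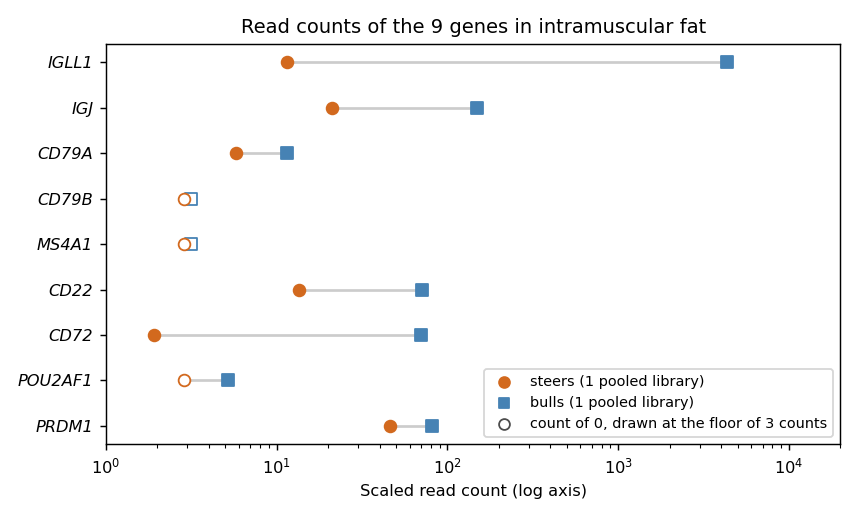
Scaled read counts of the 9 genes on a log axis, with a circle for the pooled library of steers and a square for that of bulls. Open symbols mark a count of 0, drawn at the floor of 3 counts. IGLL1 spans the widest distance, from 12 to 4174 unscaled counts, and CD79B and MS4A1 have 0 counts in both libraries.

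The row named IGLL1 may not be the gene that carries this symbol today. The identifier that the study's gene table pairs with it belongs, in the RefSeq table of ARS-UCD2.0, to LOC789205. That gene lies between LOC511354 and LOC112441499, inside a cluster that holds 19 V segments and 1 C region of immunoglobulin type, while the RefSeq gene IGLL1 lies 72 entries away, next to VPREB1. The genes of this cluster resemble each other, and how reads shared between them were counted is not given in the sources used here. Counts of the IGLL1 row are therefore uncertain as those of a single gene and are read here as counts of the row.

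Other light chain rows had the same direction. VL1X and LOC511353 were taken from the study's list of differentially expressed genes, so their difference was known beforehand and is given as a description. VL1X, which the study's gene table describes as a light chain VJ region, had no read in steers against 1212 in bulls. Set against the floor of 3 counts, its level in steers was 440-fold lower, and the upper end of the interval of the log2 ratio was -8.48. LOC511353, a V segment of the cluster, had 0 and 20 counts and was 7.26-fold lower against the floor, with an upper end of -2.43. IGLL1, VL1X and LOC511353 together had 12 (steers) and 5406 (bulls) counts, or 0.947 and 548 CPM. A further row, LOC100297192, directly follows the C region of the cluster and had 0 and 548 counts. Against the floor LOC100297192 was 199-fold lower in steers, with an upper end of -7.33. It was picked after its counts had been seen. The neighbour LOC511354 had 0 and 2 counts. ZNF280B, a zinc finger gene placed in the same stretch, had 14 and 4 counts, so not every row of the stretch was low in steers.

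Of 145 V segments and C regions in the RefSeq table, 23 have a row in the count table by their symbol. Over all rows of the count table, 65.0% had a count in bulls and 66.0% in steers. Of the 23 rows, 10 had a count in bulls, and in steers 1 row had one. That row was LOC100294952, with 4 (steers) and 197 (bulls) counts and a log2 ratio of -5.74 (-7.63 to -4.37). RefSeq types it as a V segment, whereas the study's gene table describes it as similar to a T-cell receptor beta chain, so its chain is uncertain. Of the T-cell receptor gamma constant rows, TRGC4 had 0 and 8 counts. Apart from LOC100294952, LOC511353 and TRGC4, the rows with a count had only 1 or 2, all in bulls, too few to give a direction. The V segment and C region rows were looked up after the counts of the 9 genes were known. The heavy chain genes IGHM, IGHG1 and IGHE have no row under these symbols, so heavy chains were not analysed here.

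**Figure D2:**
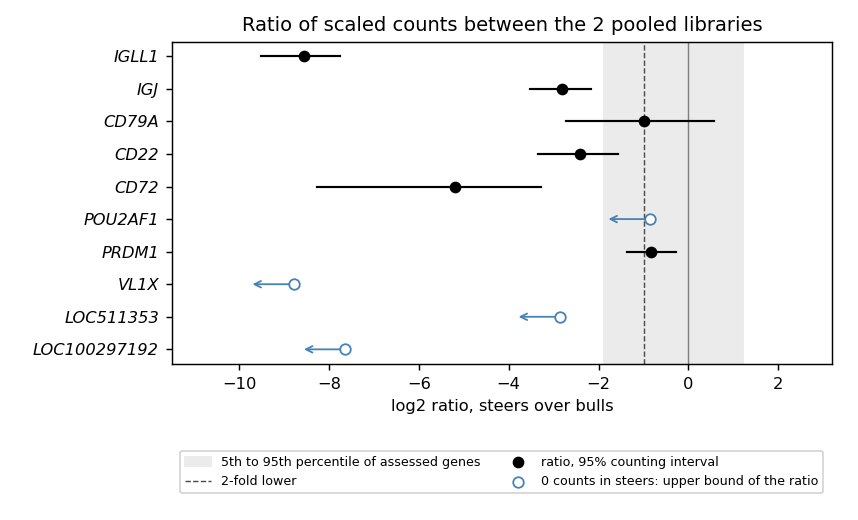
Log2 ratio of scaled counts, steers over bulls, for the members with a count and for VL1X, LOC511353 and LOC100297192. Points carry 95% counting intervals, and the grey band spans the 5th to the 95th percentile of all assessed genes, from -1.88 to 1.21. Open circles with arrows mark rows with 0 counts in steers, drawn at their ratio with steers set at the floor. The upper end of their interval lies higher, and for POU2AF1 it is 0.004, which includes no change. IGLL1 and VL1X lie far left of the band, and CD79A and PRDM1 lie within it.

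The B-cell receptor partners and surface molecules were scarce in both libraries. CD79A, a signalling chain of the B-cell receptor, had 6 (steers) and 11 (bulls) counts. Its scaled count was lower in steers by just under 2-fold, and the interval of the log2 ratio, from -2.72 to 0.56, includes no change. With TMM factors the log2 ratio was -1.02 and passed 2-fold. CD79B, the other signalling chain, and MS4A1, the CD20 antigen of mature B cells, had 0 counts in both libraries. Over all genes, 7692 rows or 30.2% were at 0 in both libraries. Whether reads of CD79B and MS4A1 could be assigned in the annotation used was not tested.

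CD22 and CD72 are inhibitory co-receptors that dampen signals of the B-cell receptor. CD22 had 14 (steers) and 68 (bulls) counts, and its log2 ratio was -2.40 (-3.35 to -1.56). The steer library held 2 reads of CD72 and the bull library 67, for a log2 ratio of -5.19 with a wide interval from -8.26 to -3.28. In bulls the level was 6.89 CPM for CD22 and 6.79 CPM for CD72, while in steers the values were 1.10 and 0.158 CPM.

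Neither of the regulators was called lower. POU2AF1, the coactivator with which octamer-binding factors drive immunoglobulin genes, had 0 and 5 counts. It was not assessed at this depth. Against the floor its steer count was 1.81-fold lower, but the upper end of the interval of the log2 ratio, 0.004, includes no change. PRDM1 encodes BLIMP-1, a repressor needed for plasma cells that T cells and myeloid cells also make. Its 48 (steers) and 78 (bulls) counts gave a log2 ratio of -0.82 (-1.37 to -0.29), which did not reach 2-fold. Scaled by total counts the ratio of PRDM1 was -1.06.

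By this rule 4 of the 9 genes were lower in steers (IGLL1, IGJ, CD22 and CD72), 0 were higher, 2 stayed within 2-fold (CD79A and PRDM1), and 3 were not assessed (CD79B, MS4A1 and POU2AF1). Scaling by total counts placed CD79A and PRDM1 past 2-fold as well, which gave 6 genes. The share of genes lower in steers fell with depth, from 24.1% of genes with under 100 counts to 7.86% of those with 100 to under 1000 and 3.95% of those with 1000 or more. CD22, CD72 and CD79A belong to the first class, IGJ and PRDM1 to the second and IGLL1 to the last. In order of the ratio, IGLL1 was lowest, followed by CD72, IGJ, CD22, CD79A and PRDM1. The intervals of the neighbours CD72 and IGJ, IGJ and CD22, CD22 and CD79A, and CD79A and PRDM1 overlapped, and the interval of IGLL1 overlapped only that of CD72.

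**Figure D3:**
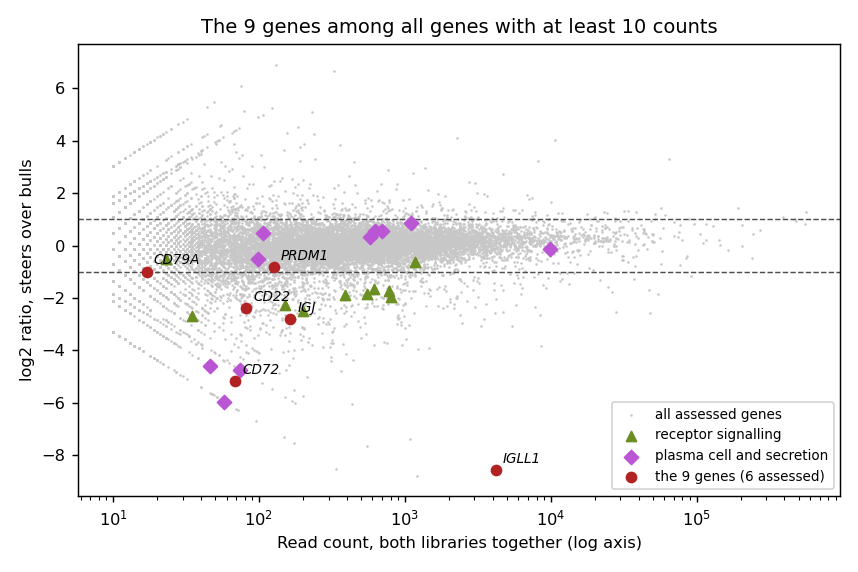
Log2 ratio, steers over bulls, against the read count of both libraries together on a log axis, for all 14540 assessed genes in grey and the 6 assessed members in red. Green triangles are genes of B-cell receptor signalling and violet diamonds genes of plasma cells and secretion. The spread of grey points narrows with the count, and IGLL1, at 4186 counts, stands apart from genes of similar depth.

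Summed over the 9 genes, the counts were 104 in steers and 4545 in bulls, a log2 ratio of -5.57 (-5.87 to -5.29). IGLL1 made up 91.8% of the sum in bulls and 11.5% in steers. Without IGLL1 the sums were 92 and 371 and the log2 ratio was -2.13 (-2.48 to -1.80). Without IGLL1 and IGJ they were 70 and 229, with a log2 ratio of -1.83 (-2.24 to -1.44). The summed difference was thus mostly that of 1 row. In pooled tissue, fewer cells of a type and less RNA per cell cannot be told apart.

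Further genes of the B lineage were taken from 6 lists, with 53 of 69 listed genes in the table. The lists were written from general knowledge, except that VL1X and LOC511353 came from the study's list of differentially expressed genes. Of the 41 assessed, 26 were lower in steers and 0 were higher, beside 11.5% and 6.73% of all assessed genes. For 22 of them the whole interval lay past 2-fold, as it did for 5.31% of all assessed genes. VL1X and LOC511353, known to differ before they were listed, are among the 26 and among the 22. The median log2 ratio of the 41 assessed genes was -1.87. Many of them are also used by myeloid cells or T cells, so these lists are not specific to B cells.

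All 7 assessed surface receptors and co-receptors were lower in steers, with a median log2 ratio of -2.40. CD37, a tetraspanin of leukocytes, had 165 (steers) and 710 (bulls) counts, and CD40, the receptor for T-cell help, had 27 and 131. CD83, a molecule of activated antigen-presenting cells, had 17 and 201 counts, a log2 ratio of -3.69 (-4.49 to -2.97). CD180, a Toll-like receptor relative found on B cells and macrophages, had 1 and 95 counts, a log2 ratio of -6.69 (-12.01 to -4.18).

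In receptor signalling, 8 of 10 assessed genes were lower in steers and the median was -1.88. VAV1, a guanine nucleotide exchange factor, had 173 and 626 counts and a log2 ratio of -1.98 (-2.23 to -1.73). The kinase gene LYN had 193 and 583 counts, and PIK3AP1, an adaptor for PI3 kinase, had 157 and 455. BANK1, a B-cell scaffold protein, stayed within 2-fold with 10 and 13 counts.

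Among the transcription factors, 5 of 8 assessed genes were lower, namely IRF4, IKZF3, IKZF1, IRF8 and BACH2, which were named after their values had been seen except IRF8. BACH2 had 8 (steers) and 17 (bulls) counts, and the interval of its log2 ratio, from -2.63 to 0.08, includes no change. IRF4, used by plasma cells and activated lymphocytes, had 10 (steers) and 149 (bulls) counts, for a log2 ratio of -4.02 (-5.11 to -3.10). IRF8 had 63 and 211 counts and a log2 ratio of -1.87 (-2.30 to -1.45). EBF1 and BCL6, which fat and stromal cells also express, had ratios of -0.17 and -0.05, and ID3 was at 0.69. PAX5, the factor that fixes B-cell identity, had 0 counts in steers and 1 in bulls.

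The plasma cell and secretion list was divided. MZB1, a chaperone for immunoglobulin assembly, had 0 and 74 counts. Against the floor MZB1 was 26.8-fold lower in steers, and the upper end of the interval of the log2 ratio was -4.41. CD27 had 1 and 57 counts, a log2 ratio of -5.96 (-11.28 to -3.42), and CD38 had 2 and 44, a log2 ratio of -4.58 (-7.67 to -2.64). These 3 genes, picked after their values had been seen, were the lower ones among 10 assessed. General secretion genes stayed within 2-fold. SSR4, of the translocon, was at -0.14 with 4921 and 4994 counts, and SEC11C, a signal peptidase subunit, was at 0.56. CREB3L2, at 0.85, also stayed within 2-fold. So did the plasma cell marker SDC1, which epithelial cells and fibroblasts also express, at 0.56 with 384 and 240 counts. The median of the list was 0.10. TNFRSF17, the receptor BCMA of plasma cells, had 2 and 4 counts.

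Of the germinal centre list, 1 of 4 assessed genes was lower, ELL3 with 3 and 12 counts, and the median was -0.44. S1PR2 was at 0.07 with 465 and 407 counts, MEF2B at -0.96 and RGS13 at 0.88.

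The label of these genes was compared with B-cell markers in each library. Together the 8 B lymphocyte markers in the table reached 36 counts (steers) and 121 counts (bulls). The defining markers MS4A1 and CD79B were at 0 in both libraries, and PAX5 was at 0 in steers and 1 in bulls. By count the set is thus led in bulls by the IGLL1 row rather than by B-cell surface genes. In steers IGLL1 had 12 of the 104 counts of the 9 genes, and PRDM1 had the most with 48. The 5 plasma cell markers in the table reached 456 (steers) and 538 (bulls) counts, of which SDC1 alone had 384 and 240.

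Markers of other cells differed as well, and their calls stand beside 11.5% of all assessed genes lower and 6.73% higher in steers. All 10 T lymphocyte markers were lower in steers, with 135 (steers) and 1010 (bulls) counts together. Their log2 ratios ran from -4.35 to -2.03, and CD3G was at 0 in steers. The interval of CD6, from -3.81 to -0.92, did not lie wholly past 2-fold. All 8 myeloid markers in the table had a ratio below 0 and 6 passed 2-fold, with 20330 and 42292 counts together and ratios from -2.34 to -0.64. Of 7 lymphoid stroma genes in the table, MADCAM1 and GLYCAM1 were at 0 in both libraries, CCL21 had 353 (steers) and 561 (bulls) counts, and CXCL13, the chemokine that draws B cells into follicles, was higher in steers with 55 counts against 7. CCR7, the homing receptor of lymphocytes, and LTB were lower in steers with 2 against 31 and 8 against 20 counts, and CCL19 stayed within 2-fold. The interval of LTB, from -2.84 to -0.20, did not lie wholly past 2-fold. The erythroid markers HBA and HBB had 37 (steers) and 7 (bulls) counts together, and ALAS2 was at 0. The part of these cells in the counts of the 9 genes was not tested.

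The genes with the ratio nearest to those of IGLL1 and IGJ, the members with the most counts, were sought among 10452 other genes with at least 100 counts over both libraries and at least 1 in each. Rows at 0 in steers, such as VL1X and LOC100297192, have only a bound and were left out. Nearest to IGLL1 were LOC789490, with 1 count in steers and 336 in bulls, SLAMF8, LOC515676, CXCL9 and DUSP2, at absolute differences of 0.05 to 2.51 in the log2 ratio. Nearest to IGJ were BOLA-DQB, ANGPTL4, BCAS1, LPXN and NLRC4, all within 0.03. This likeness rests on 1 ratio between 2 libraries.

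The miRNA libraries gave a replicated measure that the choice of the 9 genes did not use. The miRNAs themselves were chosen with earlier results of these data known. The study had already listed miR-150 as lower in steers from these libraries, so its direction is not a new result. For miRNAs known from lymphocytes, the mature sequences of the pair discussed most are shown, as the study lists them, with the seed (bases 2 to 8) in capitals:
miR-150: tCTCCCAAcccttgtaccagtgt
miR-142-5p: cATAAAGTagaaagcactac
The seeds differ, so the pair belongs to different seed families. MiR-150 is abundant in mature B and T cells, and miR-142 is made throughout blood cell lineages.

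Values are CPM normalized with TMM factors, and 1073 sequences were tested together with edgeR's quasi-likelihood test, of which 7.08% were called lower in steers (adjusted p below 0.05, change past 2-fold). MiR-150 was at 31.0 and 23.6 CPM in the libraries of steers and at 68.0 and 51.9 CPM in those of bulls. The groups did not overlap, with means of 27.3 ± 5.27 CPM (SD, n = 2) and 60.0 ± 11.4 CPM. The share of the 1073 sequences whose groups also did not overlap was not computed, so the lack of overlap is a description only. The log2 fold change of miR-150 was -1.14 (SE 0.46) with an adjusted p of 0.0824 from edgeR, which misses the threshold. With the replicate number as a block it was called, at an adjusted p of 0.0128 from edgeR, but the labels do not say that this number pairs libraries. With each library left out in turn, the log2 fold change of miR-150 ranged from -1.35 to -0.74.

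MiR-142-5p was at 571 and 407 CPM in steers and at 2041 and 1009 CPM in bulls. Its log2 fold change was -1.64 (SE 0.50, adjusted p = 0.0147 from edgeR), and it was called. The call did not hold without the first library of steers (log2 fold change -1.87, adjusted p = 0.368 from edgeR), without the second (-1.39, adjusted p = 0.748) or without the first library of bulls (-0.85, adjusted p = 0.275). It was also lost with total counts in place of TMM (-2.06, adjusted p = 0.0689 from edgeR) and without the filter on low counts (-1.73, adjusted p = 0.113). MiR-155, which rises in activated B cells, was at -0.47 (SE 0.49), miR-142-3p at -0.70 (SE 0.48) and miR-146a at -0.71 (SE 0.50), and edgeR gave them adjusted p values of 0.332 to 0.560. In these 3 miRNAs the groups overlapped, and without the first library of bulls their log2 fold changes were 0.12, 0.15 and 0.17. Whether the miRNAs came from the cells that hold the transcripts of the 9 genes was not tested.

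**Figure D4:**
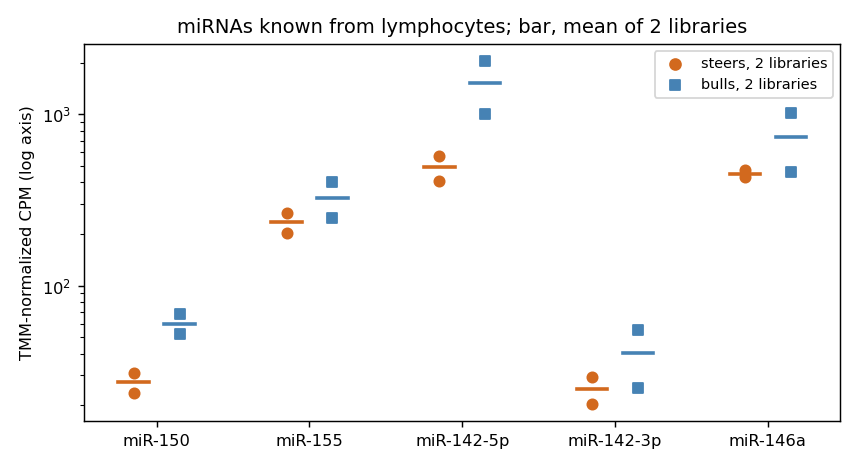
TMM-normalized CPM of 5 miRNAs on a log axis, with 1 point per library, circles for steers and squares for bulls, and a bar at the mean of the 2 libraries. The groups are apart for miR-150 and miR-142-5p and overlap for miR-155, miR-142-3p and miR-146a. The share of all tested sequences with groups apart was not computed.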

How the data were processed

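Both tables hold raw counts, as deposited by the authors, without normalization. For mRNA the authors filtered adaptors and poor reads and mapped with MapSplice to a bovine genome. How reads were counted, and whether strand was used, is not given in the sources used here. The submitters' processing notes name BWA and the genome build GRCh37.p13, which is a human build, with no role. For miRNA the authors trimmed the reads and used BWA against miRBase and a bovine genome.

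The 9 genes and all gene lists were chosen with earlier results of these data known. Size factors were medians of ratios (DESeq2 1.42.0), and ratios and Clopper-Pearson intervals were computed with numpy 2.4.6 and scipy 1.17.1. A count of 0 was replaced by 3 counts. Reads are not independent molecules, so intervals cover counting error only. No test was run on mRNA. Counts per miRNA library were 10452582 and 8859844 (steers) and 7784227 and 6556511 (bulls). They were fitted with edgeR 4.0.16 under R 4.3.3 (filterByExpr, TMM, glmQLFit, glmQLFTest on group, Benjamini-Hochberg adjustment). The SE is the absolute log2 fold change over the square root of F. Replicate libraries were grouped by their labels, which do not say how animals were divided between them, so the p-values measure only the spread between libraries.

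Named were all 9 genes, the 4 genes with the most counts of each further B-lineage list, PAX5 and TNFRSF17, and genes marked as picked afterwards; some genes that this rule names are not reported here. Intervals and tests were tested on simulated data. IGJ matched RefSeq by an older symbol and the other 8 genes by symbol. RefSeq (ARS-UCD2.0) gave names and neighbours only, since the reads were aligned to another build. No gene lengths were used, so levels of different genes are not compared.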

Additional observations from a re-analysis of the deposited data

How the results depend on the processing

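The number of the 9 genes lower in steers was 4, and it ranged from 4 to 6 under other scalings, other minimum counts, added counts of 0.5 or 5 and the rule that the whole interval pass 2-fold. The 26 further B-lineage genes lower in steers ranged from 21 to 29. The summed log2 ratio of -5.57 became -2.13 without IGLL1, which holds most of the counts, and -5.81 with total counts. Of the 5 miRNAs, 1 was called lower by edgeR. With total counts in place of TMM edgeR called 0, although all 5 had an unadjusted p under 0.05, and without a filter it called 0, with 2 at an unadjusted p under 0.05. DESeq2 called 1. With known bovine miRNAs alone 2 were called. With the replicate block 2 were called, and the calls over all sequences, 152 in both directions, became 252. They were 1 with total counts, 109 with DESeq2, 70 without a filter, 75 among known bovine miRNAs and 26 to 151 with a library left out. The labels do not say that the replicate number pairs libraries, and deviations of libraries with the same number had a correlation of 0.304. With each library left out in turn, 0 to 1 of the 5 were called by edgeR, with 0 to 4 at an unadjusted p under 0.05, and a lone library was assumed to vary like the other group. In these fits the log2 fold change ranged from -0.81 to 0.12 for miR-155, from -1.18 to 0.15 for miR-142-3p, from -1.20 to 0.17 for miR-146a and from -2.09 to -0.85 for miR-142-5p, and the cause was not tested. Depth limits CD79A and POU2AF1, whose counts were 11 or fewer in each library.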

Other observations

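The 10 lowest ratios of all assessed genes included VL1X and IGLL1, and LOC100297192, which lies next to the light chain cluster. CD180 was also among them, as were SLAMF8, with 1 count in steers and 172 in bulls, and CXCL9, with 1 and 147. SLAMF8 is a surface receptor of macrophages and CXCL9 a chemokine induced by interferon gamma. The other 4, LOC789490, LOC515676, LOC617979 and LOC781710, carry locus symbols in the count table and were not identified here.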
